A study of Mus musculus with 16 samples.

Results

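Chromatin accessibility around 9 genes of the B-lymphocyte programme was examined by ATAC-seq, a method that marks DNA left accessible to the Tn5 transposase. The genes were Ebf1, Pax5, Cd79a, Cd79b, Vpreb1, Igll1, Blnk, Blk and Pou2af1. Peaks of the 8 deposited lists that overlapped were merged into 122020 union regions, and the 113 regions that touched the mm10 span of any of these genes or the 30 kb on either side of it were the regions described. Ebf1 had 39 of them, Pax5 17, Cd79b 12, Blk 12, Cd79a 11, Blnk 11, Pou2af1 7, Vpreb1 4 and Igll1 3. All 3 regions of Igll1 were also regions of its neighbour Vpreb1 and were counted once in the total.

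The cells were haematopoietic progenitors, labelled as multipotent progenitors, from mice aged 21 days. Set 1 held Flt3-ITD/Runx1-het, Flt3-ITD, Runx1-het and wild type, and set 2 held NUP98-HOXD13/Flt3-ITD, NUP98-HOXD13, Flt3-ITD and wild type. Flt3-ITD is a duplication within the cytokine receptor gene Flt3 that leaves the receptor active without ligand, Runx1-het has lost a copy of a blood transcription factor, and NUP98-HOXD13 is a leukaemia fusion gene. The sources used here give neither the alleles, the promoter of the fusion gene nor the number of mice per sample, and the sets are told apart by sample titles only. Each of the 8 groups had 2 samples and 1 peak list made from both, so no value had a replicate error and no test between genotypes was possible. A region counted as present wherever a list had a peak within it, and a missing peak does not show that the chromatin was closed.

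Commitment of a lymphoid progenitor to the B lineage depends on the transcription factors EBF1 and PAX5, which induce each other and then a shared set of targets. Those targets include the surrogate light chain of the pre-B-cell receptor (Vpreb1 and Igll1), the signalling chains of the receptor (Cd79a and Cd79b), and the molecules that pass its signal on (the adaptor Blnk and the kinase Blk). Multipotent progenitors are not committed, and open chromatin at these genes can precede their expression, which ATAC-seq does not measure.

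Few of the genes with a start window had an open region inside it, and Cd79b and Blk had no window to examine. Start windows of RefSeq, from 250 bases before the first base of a gene to its first 50 bases, were given for 7 of the 9 genes. The Blnk window held a region in all 8 lists and the Cd79a window in 5, whereas those of Ebf1, Pax5, Vpreb1, Igll1 and Pou2af1 held a region in 0 of 8. Among 17491 protein-coding genes, 58.1% to 63.6% had a region at a start in a given list. The nearest region began 42 bases from the first of the 2 Ebf1 windows, 651 bases from the Igll1 window, 1047 from Vpreb1, 1323 from the second Ebf1 window, 1880 from Pax5 and 2004 from Pou2af1.

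The start windows of Blnk (open in every list), Cd79a (open in some), Igll1 and Vpreb1 (no region at the start, but one between the genes) and Ebf1 (no region at the start, but one on either side) are printed 5′ to 3′ on the strand of the gene, from RefSeq on GRCm38.p6. Capitals mark matches, on either strand, to 6 short motifs of B-lineage and blood factors, and no match overlapped another.
Blnk, chr19:40994172-40994471, minus strand: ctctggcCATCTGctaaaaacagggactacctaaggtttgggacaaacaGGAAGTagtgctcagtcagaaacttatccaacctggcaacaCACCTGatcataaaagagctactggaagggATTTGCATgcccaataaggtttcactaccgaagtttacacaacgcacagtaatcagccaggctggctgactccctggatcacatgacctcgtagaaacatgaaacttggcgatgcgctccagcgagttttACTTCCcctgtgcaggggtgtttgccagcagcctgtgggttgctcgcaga
Cd79a, chr7:24897247-24897546, plus strand: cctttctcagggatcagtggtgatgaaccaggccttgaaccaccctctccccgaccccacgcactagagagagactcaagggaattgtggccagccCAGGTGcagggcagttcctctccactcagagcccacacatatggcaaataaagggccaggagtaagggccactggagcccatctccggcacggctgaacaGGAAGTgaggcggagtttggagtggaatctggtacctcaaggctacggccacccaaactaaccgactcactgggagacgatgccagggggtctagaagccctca
Igll1, chr16:16863936-16864235, minus strand: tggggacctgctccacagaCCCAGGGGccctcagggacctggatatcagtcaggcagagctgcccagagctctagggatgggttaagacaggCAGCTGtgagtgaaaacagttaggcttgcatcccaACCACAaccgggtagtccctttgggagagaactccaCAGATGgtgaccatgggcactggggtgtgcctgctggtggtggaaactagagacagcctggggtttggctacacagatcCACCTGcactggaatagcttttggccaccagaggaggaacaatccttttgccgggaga
Vpreb1, chr16:16869206-16869505, minus strand: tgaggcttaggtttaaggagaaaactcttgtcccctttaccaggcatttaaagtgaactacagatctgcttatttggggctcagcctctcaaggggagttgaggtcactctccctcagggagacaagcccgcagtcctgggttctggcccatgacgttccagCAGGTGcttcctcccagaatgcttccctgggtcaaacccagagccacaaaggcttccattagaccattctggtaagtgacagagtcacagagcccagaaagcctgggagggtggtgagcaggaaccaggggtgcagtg
Ebf1, chr11:44617850-44618149, plus strand: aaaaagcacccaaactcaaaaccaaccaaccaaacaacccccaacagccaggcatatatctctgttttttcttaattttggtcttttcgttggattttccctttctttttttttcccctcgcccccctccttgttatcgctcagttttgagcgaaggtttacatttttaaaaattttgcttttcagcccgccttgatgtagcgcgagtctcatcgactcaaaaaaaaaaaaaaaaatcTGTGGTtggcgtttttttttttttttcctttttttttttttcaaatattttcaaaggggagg

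The octamer ATTTGCAT, which POU factors such as OCT1 and OCT2 bind, stood 130 bases before the first base of Blnk, and 1.74% of 32851 start windows in the table held it. The EBF core CCCNNGGG stood in the Igll1 window, as in 13.7% of all windows. The E-box CAGNTG, bound by E proteins, was found in the Blnk, Cd79a, Igll1 and Vpreb1 windows and in 51.4% of all. The RUNX letters TGTGGT stood in the Ebf1 window printed and in Igll1 (16.8% of all windows). The ETS letters GGAAGT were found in Blnk, Cd79a and the second Ebf1 window (23.8%), and the Ikaros letters TGGGAA in the second Ebf1 window (25.6%). These matches describe letters in the windows and were not read as bound sites.

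Of the 113 regions, 63 lay inside a gene span, 2 at a start, 18 upstream and 14 downstream. The other 16 lay beside Cd79b or Blk, with 13 above and 3 below the span in genome coordinates, since no strand was used for these genes. Exons and introns could not be told apart with the tables used here. A start of another gene lay in 6 regions, at Rps19, Arhgef1 (2 regions), Top3b, Ppm1f and Gm12462, and 5 of these 6 were present in all 8 lists. Such regions near Cd79a and Vpreb1 stood among the strongest described here, and which gene they serve was not tested.

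A core of 31 regions was open in every genotype. That was 27.4% of the 113, against 34.1% of all union regions. Leaving out Flt3-ITD of set 2, whose list had 84080 peaks where the others held 113325 to 138514, the core was 35 regions (31.0%, against 39.7% of all). At the other end, 24 regions (21.2%, against 18.9%) were present in a single list. The peak caller's −log10 p, the authors' value for a peak, ranks peaks within a list. The median of the highest −log10 p in any list was 111 for the 31 core regions and 20.3 for the other 82, and the median width was 887 and 408 bp. Over all union regions the median of the highest −log10 p was 164 for those in all 8 lists and 25.8 for the rest. Within the core most summits lay close together across lists, with a median range of 46 bp and 22 of the 31 within 100 bp. In 5 of the 31 the range was over 300 bp, up to 1159 bp at the Blk region that starts at 63435065. These ranges were not compared with those of all union regions.

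**Figure D1:**
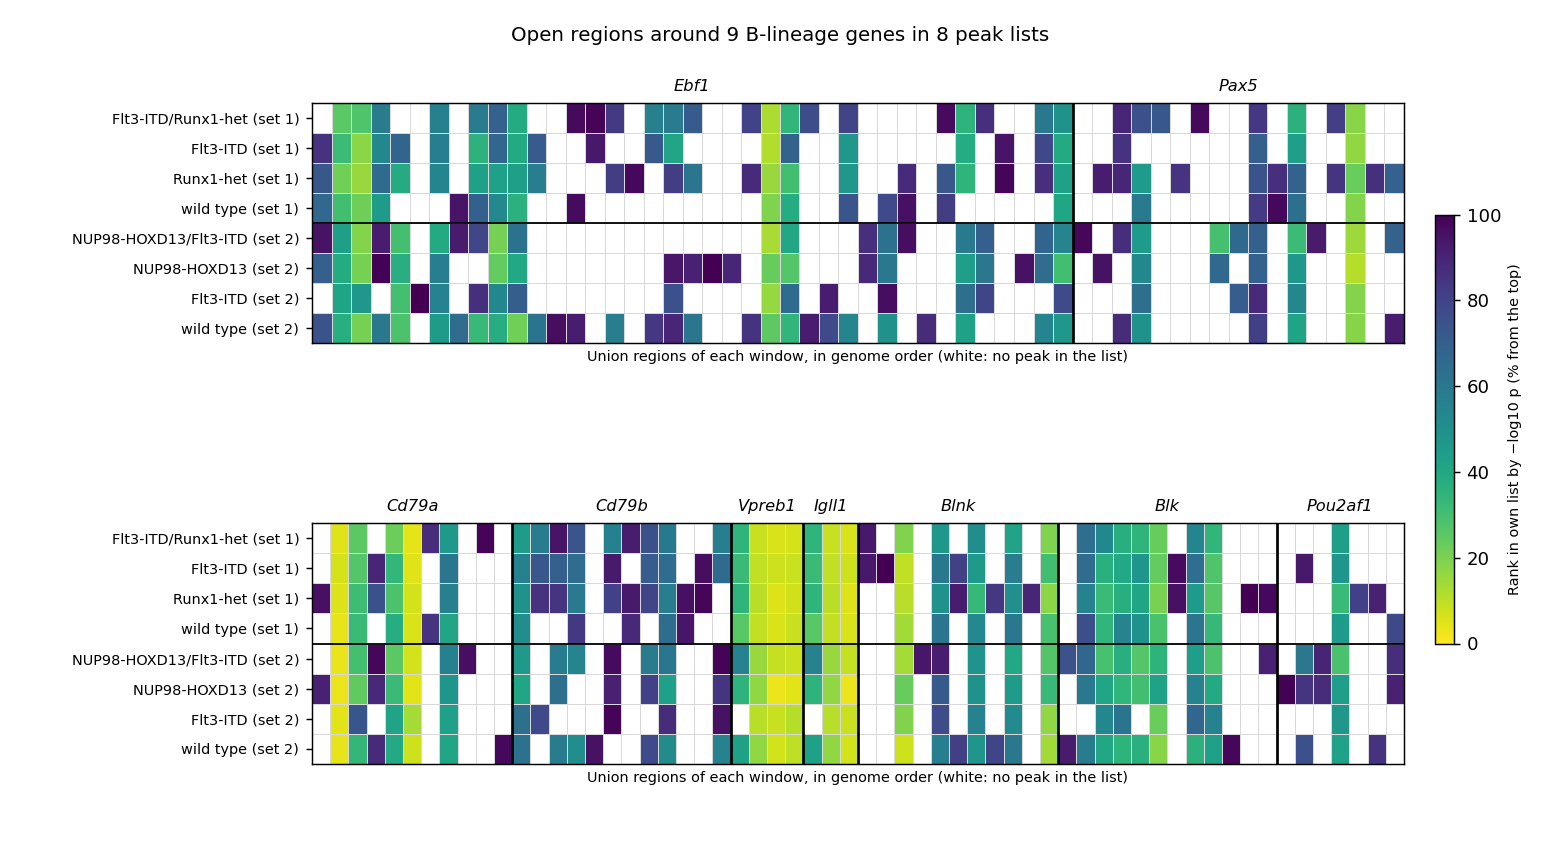
Presence and rank of each region around the 9 genes in the 8 peak lists. Columns are union regions in genome order, rows are lists with set 1 above set 2, and colour gives the rank by −log10 p as a percentage from the top of the list (white: no peak). The columns filled in all 8 rows are the 31 core regions, with 3 columns drawn for both Vpreb1 and Igll1 of which 2 belong to the core.

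The share of the 113 regions held by a list lay below that list's share of all union regions in 7 of 8 lists. In set 1, Flt3-ITD/Runx1-het held 65 (57.5%, against 66.7% of all regions), Flt3-ITD 61 (54.0%, against 65.4%), Runx1-het 77 (68.1%, against 67.8%) and wild type 50 (44.2%, against 59.1%). In set 2, NUP98-HOXD13/Flt3-ITD held 66 (58.4%, against 61.7%), NUP98-HOXD13 61 (54.0%, against 63.9%), Flt3-ITD 45 (39.8%, against 46.9%) and wild type 71 (62.8%, against 72.4%). Of the 6 mutant lists, 4 lay between the 2 wild-type lists, Runx1-het above both and set-2 Flt3-ITD below both.

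Ebf1, which encodes the factor that starts the B-lineage programme, had the most regions, and 32 of its 39 differed between lists. So did 14 of 17 at Pax5, 10 of 12 at Cd79b and 6 of 7 at Pou2af1, and 80394 of all 122020 union regions. Its span (chromosome 11, 44618100 to 45008096, plus strand) runs over 390 kb. In set 1, Flt3-ITD/Runx1-het held 23 of its 39 regions, Flt3-ITD 20, Runx1-het 24 and wild type 16. In set 2, NUP98-HOXD13/Flt3-ITD held 19, NUP98-HOXD13 21, Flt3-ITD 16 and wild type 28. All 6 mutant lists lay between the 2 wild-type lists or at the lower one.

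The strongest open site of Ebf1 lay far inside the gene and was present in every genotype. This region, 263.4 kb into the gene (44881099 to 44881970), had a −log10 p of 204.6 in Flt3-ITD/Runx1-het, 211.7 in Flt3-ITD, 173.7 in Runx1-het and 139.5 in wild type of set 1. The values were 172.2 in NUP98-HOXD13/Flt3-ITD, 97.2 in NUP98-HOXD13, 57.8 in Flt3-ITD and 150.6 in wild type of set 2. It ranked between the top 11.6% (set-1 Flt3-ITD) and the top 24.8% (set-2 wild type) of a list, with an enrichment of 13.96-fold to 21.26-fold over local background, and it was the highest Ebf1 region in 5 lists. In the other 3 lists, Runx1-het, NUP98-HOXD13 and set-2 wild type, the highest was the region 0.9 kb before the start (44616864 to 44617532). That upstream region was present in all 8 lists too, with its summit 879 to 895 bases before the first base.

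Between these, the chromatin just past the Ebf1 start was open in all lists but 1. The region at 44618191 to 44618655, 0.3 kb into the gene, had a −log10 p of 40.4 in Flt3-ITD/Runx1-het, 49.1 in Flt3-ITD, 32.2 in Runx1-het and 57.4 in wild type of set 1. In set 2 it was 12.2 in NUP98-HOXD13/Flt3-ITD (top 92.3% of the list), 4.9 in NUP98-HOXD13 (top 99.4%) and 45.2 in wild type, and Flt3-ITD held no peak. In set 1 the same region ranked in the top 45.3% to 65.3%. The lists differ in length, so a difference in rank or −log10 p between lists was not read as a change at any region.

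Other Ebf1 regions were missing from mutant lists and present in the wild type of the set. The region at 279.4 kb (44897248 to 44897667) was missing from all 3 mutant lists of set 2 and had a −log10 p of 53.8 in the wild type of that set. In set 1 it stood at 22.1 in Flt3-ITD/Runx1-het, 58.4 in Flt3-ITD, 54.6 in Runx1-het and 25.9 in wild type. A region at 47.6 kb (44665095 to 44666363) was missing from NUP98-HOXD13 alone and reached 111.2 in set-2 wild type, though with peaks required to cover 50% of the region it counted in 2 lists rather than 7. An upstream region (44606910 to 44607244) was missing from Flt3-ITD/Runx1-het and set-2 Flt3-ITD, with 32.2 in set-1 wild type and 28.8 in set-2 wild type.

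Set-1 wild type lacked several Ebf1 regions that most other lists held. The region at 310.5 kb (44928345 to 44928919) was present in the other 7 lists, with a −log10 p of 78.0 in Flt3-ITD/Runx1-het, 74.6 in Flt3-ITD and 79.3 in Runx1-het. The region at 15.2 kb (44632815 to 44633799) had the same pattern, with 41.6 in Flt3-ITD/Runx1-het, 43.3 in Flt3-ITD and 43.6 in Runx1-het. A region at 6.7 kb (44624549 to 44625045) was missing from set-1 wild type and Flt3-ITD/Runx1-het, and reached 130.3 in set-2 wild type. Since set-2 wild type held all 3, none of these absences was shared by the wild types.

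Some weaker Ebf1 regions were present in mutant lists and in neither wild type. The region at 331.2 kb (44949091 to 44949496) was present in Flt3-ITD/Runx1-het (17.5), NUP98-HOXD13/Flt3-ITD (24.1), NUP98-HOXD13 (28.5) and set-2 Flt3-ITD (10.8). A region at 281.7 kb (44899672 to 44899974) was present in NUP98-HOXD13/Flt3-ITD (14.9) and NUP98-HOXD13 (11.8) alone, and the region at 147.1 kb (44765051 to 44765403) in Flt3-ITD/Runx1-het (8.7) and Flt3-ITD of set 1 (14.2). The last 2 were in 0 lists when every list was shortened to its 84080 strongest peaks. Regions at 156.5 kb, 215.2 kb and 233.9 kb were held by Flt3-ITD/Runx1-het and Runx1-het and by neither other list of set 1, but set-2 wild type held them as well, with −log10 p of 48.0, 43.7 and 19.8.

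**Figure D2:**
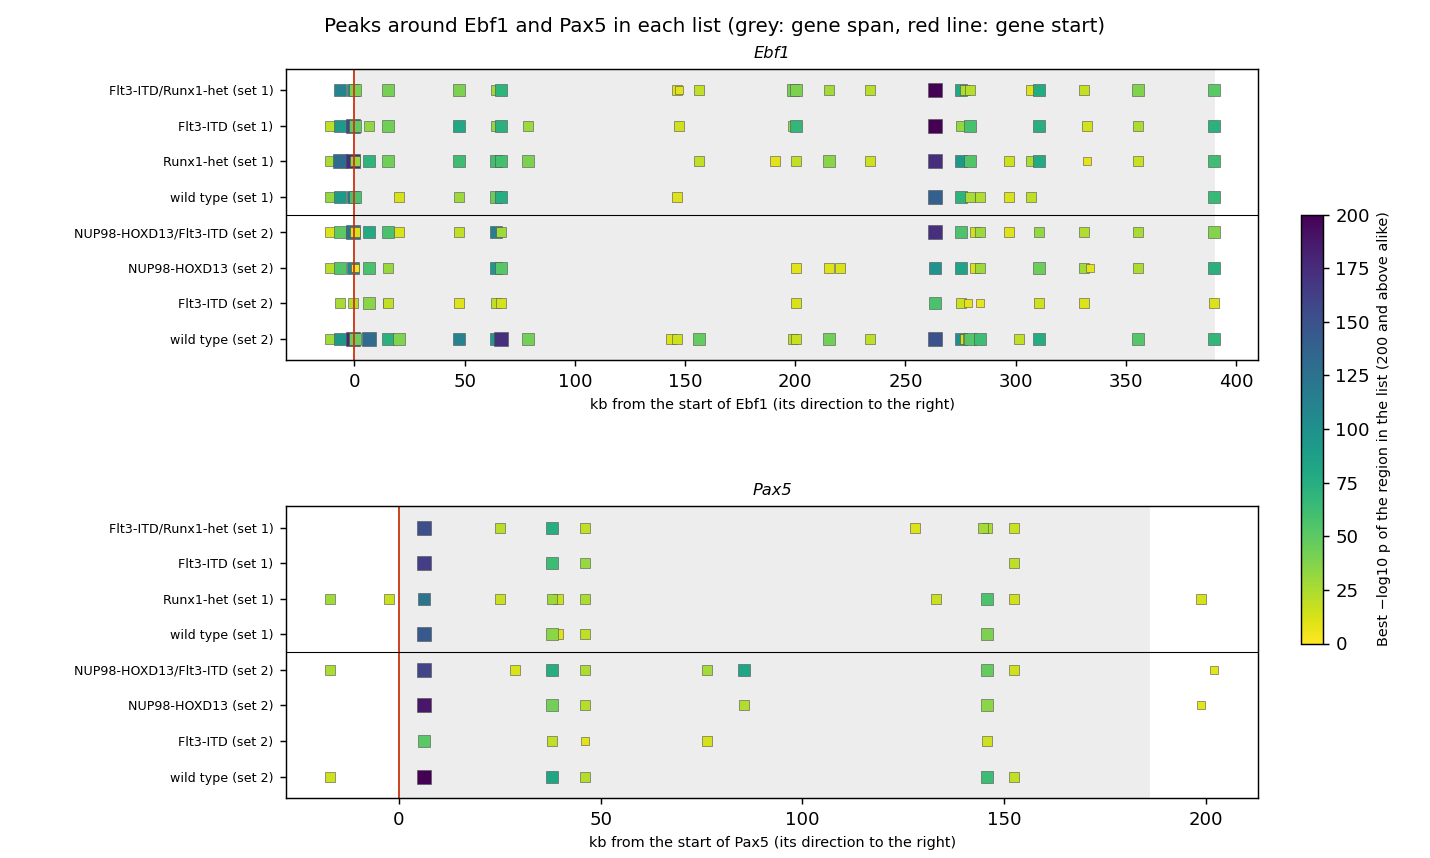
Peaks around Ebf1 (top) and Pax5 (bottom) by distance from the gene start, with the gene running to the right, 1 row per list and set 1 above set 2. Colour and size give the best −log10 p of a region in its list, which ranks peaks within a row only, and grey marks the gene span. Columns of squares at 263.4 kb in Ebf1 and at 6.3 kb in Pax5 are filled in all 8 rows, and the 85.6 kb position in Pax5 is filled in the 2 NUP98-HOXD13 rows alone.

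Pax5, which encodes the factor that maintains B-cell identity, had 17 regions over a span of 186 kb (chromosome 4, 44524748 to 44710694, minus strand). In set 1, Flt3-ITD/Runx1-het held 8 of them, Flt3-ITD 4, Runx1-het 11 and wild type 5. In set 2, NUP98-HOXD13/Flt3-ITD held 10, NUP98-HOXD13 6, Flt3-ITD 5 and wild type 6. The 2 wild types stood closer together than at Ebf1, and the Runx1-het and NUP98-HOXD13/Flt3-ITD lists held the most.

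The leading Pax5 site was 1 region 6.3 kb into the gene (44703883 to 44704862), the highest Pax5 region in all 8 lists, which also lay in the span of 5730488B01Rik. Its −log10 p was 152.6 in Flt3-ITD/Runx1-het, 163.7 in Flt3-ITD, 123.8 in Runx1-het and 145.1 in wild type of set 1. For set 2 it was 159.9 in NUP98-HOXD13/Flt3-ITD, 188.2 in NUP98-HOXD13, 51.5 in Flt3-ITD and 204.7 in wild type. It stood between the top 11.1% (NUP98-HOXD13) and the top 22.8% (Runx1-het) of a list, with an enrichment of 12.95-fold to 17.05-fold. Regions at 37.9 kb (44672082 to 44673457) and 46.2 kb (44663947 to 44665010) were present in all 8 lists as well.

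A Pax5 region was present in both NUP98-HOXD13 lists and in none of the other 6. It lay 85.6 kb into the gene (44624595 to 44625520) and was the second highest Pax5 region in NUP98-HOXD13/Flt3-ITD, with a −log10 p of 81.5, an enrichment of 14.83-fold over background and a rank of 22146 of 75234 (top 29.4%). In NUP98-HOXD13 it had 23.8, 6.95-fold and a place in the top 66.5%. It was present in 2 lists with equal numbers of peaks as well. Over all union regions, 2.8% were held by both NUP98-HOXD13 lists and neither other list of set 2. Around the 9 genes 3.54% of the regions were, which was 4 regions. Set 1 was left out of these shares, and of the 4 the Pou2af1 region at 52.2 kb was also in set-1 wild type.

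Other Pax5 regions varied with lower values. The region at 76.4 kb (44634097 to 44634587) was present in NUP98-HOXD13/Flt3-ITD (26.9) and set-2 Flt3-ITD (13.1), and in no list without Flt3-ITD, but the set-1 lists with Flt3-ITD lacked it. The region at 25.1 kb (44685407 to 44685784), inside the span of Gm12462, was present in Flt3-ITD/Runx1-het (20.5) and Runx1-het (17.1) alone. The region at 39.5 kb (44671016 to 44671392) was present in Runx1-het (16.4) and set-1 wild type (10.2). The region at 145.7 kb (44564577 to 44565405) was missing from set-1 Flt3-ITD alone, with 62.5 in set-2 wild type, though it counted in 4 lists when peaks had to cover 50% of it. Of the 6 regions held by a single list, Flt3-ITD/Runx1-het, Runx1-het and NUP98-HOXD13/Flt3-ITD held 2 each.

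Vpreb1 and Igll1 encode the 2 proteins of the surrogate light chain and lie next to each other (chromosome 16, Vpreb1 16868401 to 16869255 and Igll1 16860671 to 16863985, both on the minus strand). A strong region between them (16864886 to 16866264), 1.6 kb before the Igll1 start, was open in every genotype. In set 1 its −log10 p was 260.8 in Flt3-ITD/Runx1-het, 241.9 in Flt3-ITD, 232.9 in Runx1-het and 238.7 in wild type. Set 2 gave 150.9 in NUP98-HOXD13/Flt3-ITD, 134.1 in NUP98-HOXD13, 75.1 in Flt3-ITD and 219.5 in wild type. Neither start window printed above held a peak in any list (0 of 8).

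The other surrogate light chain regions were held nearly throughout. The region 14.3 kb past the Vpreb1 start (16854695 to 16855301) was missing from set-2 Flt3-ITD alone, and had a −log10 p of 35.8 in NUP98-HOXD13/Flt3-ITD, 61.2 in NUP98-HOXD13 and 77.9 in wild type of that set. The starts of Top3b and Ppm1f lay in the remaining regions, both present in all 8 lists. Both wild-type lists held all 4 Vpreb1 regions and all 3 Igll1 regions, and no mutant list gained a region over wild type at these genes.

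Cd79a and Cd79b encode the signalling chains of the B-cell receptor. Whether the Cd79a start held a region differed from list to list. The Cd79a start region (chromosome 7, 24897128 to 24897746) had a −log10 p of 16.9 in set-1 Flt3-ITD and 24.0 in Runx1-het, and was missing from Flt3-ITD/Runx1-het and wild type of set 1. In set 2 it was 8.6 in NUP98-HOXD13/Flt3-ITD, 11.5 in NUP98-HOXD13 and 17.9 in wild type, and was missing from Flt3-ITD. These were weak peaks, of 3.53-fold to 6.86-fold and in the top 75.3% to 98.1% of their lists, with summits 126 to 160 bases before the first base, and 1 list held the region when numbers of peaks were equal. The E-box match and the ETS match of the printed window stood 154 and 54 bases before the first base.

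Around Cd79a, 5 of 11 regions were present in all lists, and the leading ones lay at neighbouring genes. The region at the start of Rps19, 13.1 kb upstream (24883810 to 24885023), stood in the top 2.93% to 6.34% of every list. The region 6.8 kb past the Cd79a start (24904019 to 24904538), at a start of Arhgef1, was also in all 8. A region 7.0 kb upstream at no gene start (24890038 to 24890987) had a −log10 p of 110.5 in Flt3-ITD/Runx1-het, 108.9 in Flt3-ITD, 91.1 in Runx1-het and 86.2 in wild type of set 1. Its values in set 2 were 79.5 in NUP98-HOXD13/Flt3-ITD, 93.0 in NUP98-HOXD13, 12.9 in Flt3-ITD and 105.7 in wild type.

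Cd79b (chromosome 11, 106311341 to 106314562) had no strong site in any list. Its best region stood in the top 40.8% to 63.7% of a list, which was the lowest place of the 9 genes in 7 of 8 lists. In every list but set-2 wild type that best region (106302544 to 106303069) lay in the span of another gene, Gh. The region at the higher end of the Cd79b span (106314265 to 106314876) was present in 6 lists and missing from NUP98-HOXD13 and set-2 Flt3-ITD. Its −log10 p was 25.8 in Flt3-ITD/Runx1-het, 35.9 in Flt3-ITD, 38.2 in Runx1-het and 19.3 in wild type of set 1, and 37.0 in NUP98-HOXD13/Flt3-ITD and 59.5 in wild type of set 2. A region inside the span (106313362 to 106314176) was missing from Flt3-ITD of set 2 and from wild type of set 1, with 47.2 in set-2 wild type. Set-1 mutants held 9, 9 and 10 of the 12 regions (Flt3-ITD/Runx1-het, Flt3-ITD and Runx1-het), and wild type held 5. Most of the 12 lay above the Cd79b span, inside that of Scn4a, and which gene they serve was not tested.

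Blnk encodes the adaptor that links the receptor's kinases to downstream enzymes (chromosome 19, 40928927 to 40994221, minus strand). Its start region (40994000 to 40994486) was present in all 8 lists with summits from 36 bases before to 33 bases after the first base. The −log10 p was 55.4 in Flt3-ITD/Runx1-het, 41.2 in Flt3-ITD, 50.6 in Runx1-het and 36.9 in wild type of set 1. In set 2 it was 12.2 in NUP98-HOXD13/Flt3-ITD (top 92.3%), 20.3 in NUP98-HOXD13 (top 72.0%), 11.9 in Flt3-ITD (top 77.1%) and 48.8 in wild type (top 57.6%). In set 1 the mutant lists held it at the top 46.5% to 59.6%, and the wild-type list at the top 61.3%.

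The main Blnk site lay 31.0 kb into the gene (40962935 to 40963597) and led the window in 7 of 8 lists. It had a −log10 p of 143.0 in Flt3-ITD/Runx1-het, 239.4 in Flt3-ITD, 228.8 in Runx1-het and 182.3 in wild type of set 1. In set 2 the values were 170.1 in NUP98-HOXD13/Flt3-ITD, 98.1 in NUP98-HOXD13, 51.2 in Flt3-ITD and 390.9 in wild type. It stood between the top 7.67% (set-2 wild type) and the top 23.1% (NUP98-HOXD13) of a list, with an enrichment of 14.19-fold to 25.27-fold. Regions 4.7, 22.2 and 28.3 kb upstream were present in all lists, and the last of them led the window in set-2 Flt3-ITD (55.8).

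Blk, a Src-family kinase of B cells (chromosome 14, 63372837 to 63417187), was open at 5 of its 12 regions in every list. The region with the highest value in any list (63413403 to 63414125) had a −log10 p of 119.7 in Flt3-ITD/Runx1-het, 120.2 in Flt3-ITD, 137.5 in Runx1-het and 97.1 in wild type of set 1. Set 2 gave 65.7 in NUP98-HOXD13/Flt3-ITD, 48.5 in NUP98-HOXD13, 44.2 in Flt3-ITD and 206.0 in wild type. A neighbouring region (63410931 to 63412031) was missing from set-2 Flt3-ITD alone, with 90.5 in NUP98-HOXD13/Flt3-ITD, 73.6 in NUP98-HOXD13 and 96.3 in wild type of that set. With peaks required to cover 50% of it, this region counted in 3 lists. The higher end of the span (63416884 to 63417243) was open in set-1 Flt3-ITD (11.9) and Runx1-het (10.6), and the lower end (63372532 to 63372842) in all lists but set-2 Flt3-ITD.

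Pou2af1 encodes a B-cell coactivator of the octamer-binding factors (chromosome 9, 51213690 to 51240079, plus strand), and 1 of its 7 regions was present in all lists. That region, 25.3 kb into the gene (51238572 to 51239467), had a −log10 p of 59.6 in Flt3-ITD/Runx1-het, 56.7 in Flt3-ITD, 87.2 in Runx1-het and 56.7 in wild type of set 1. The values in set 2 were 83.8 in NUP98-HOXD13/Flt3-ITD, 45.2 in NUP98-HOXD13, 22.9 in Flt3-ITD and 79.1 in wild type. A region 2.4 kb into the gene (51215929 to 51216296) was present in NUP98-HOXD13/Flt3-ITD (13.0) and NUP98-HOXD13 (11.9) alone, and in 0 lists with equal numbers of peaks. The region 2.6 kb upstream (51210679 to 51211436) had 31.7 in NUP98-HOXD13/Flt3-ITD, 13.5 in NUP98-HOXD13 and 27.8 in wild type of set 2, and 14.2 in Flt3-ITD of set 1.

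**Figure D3:**
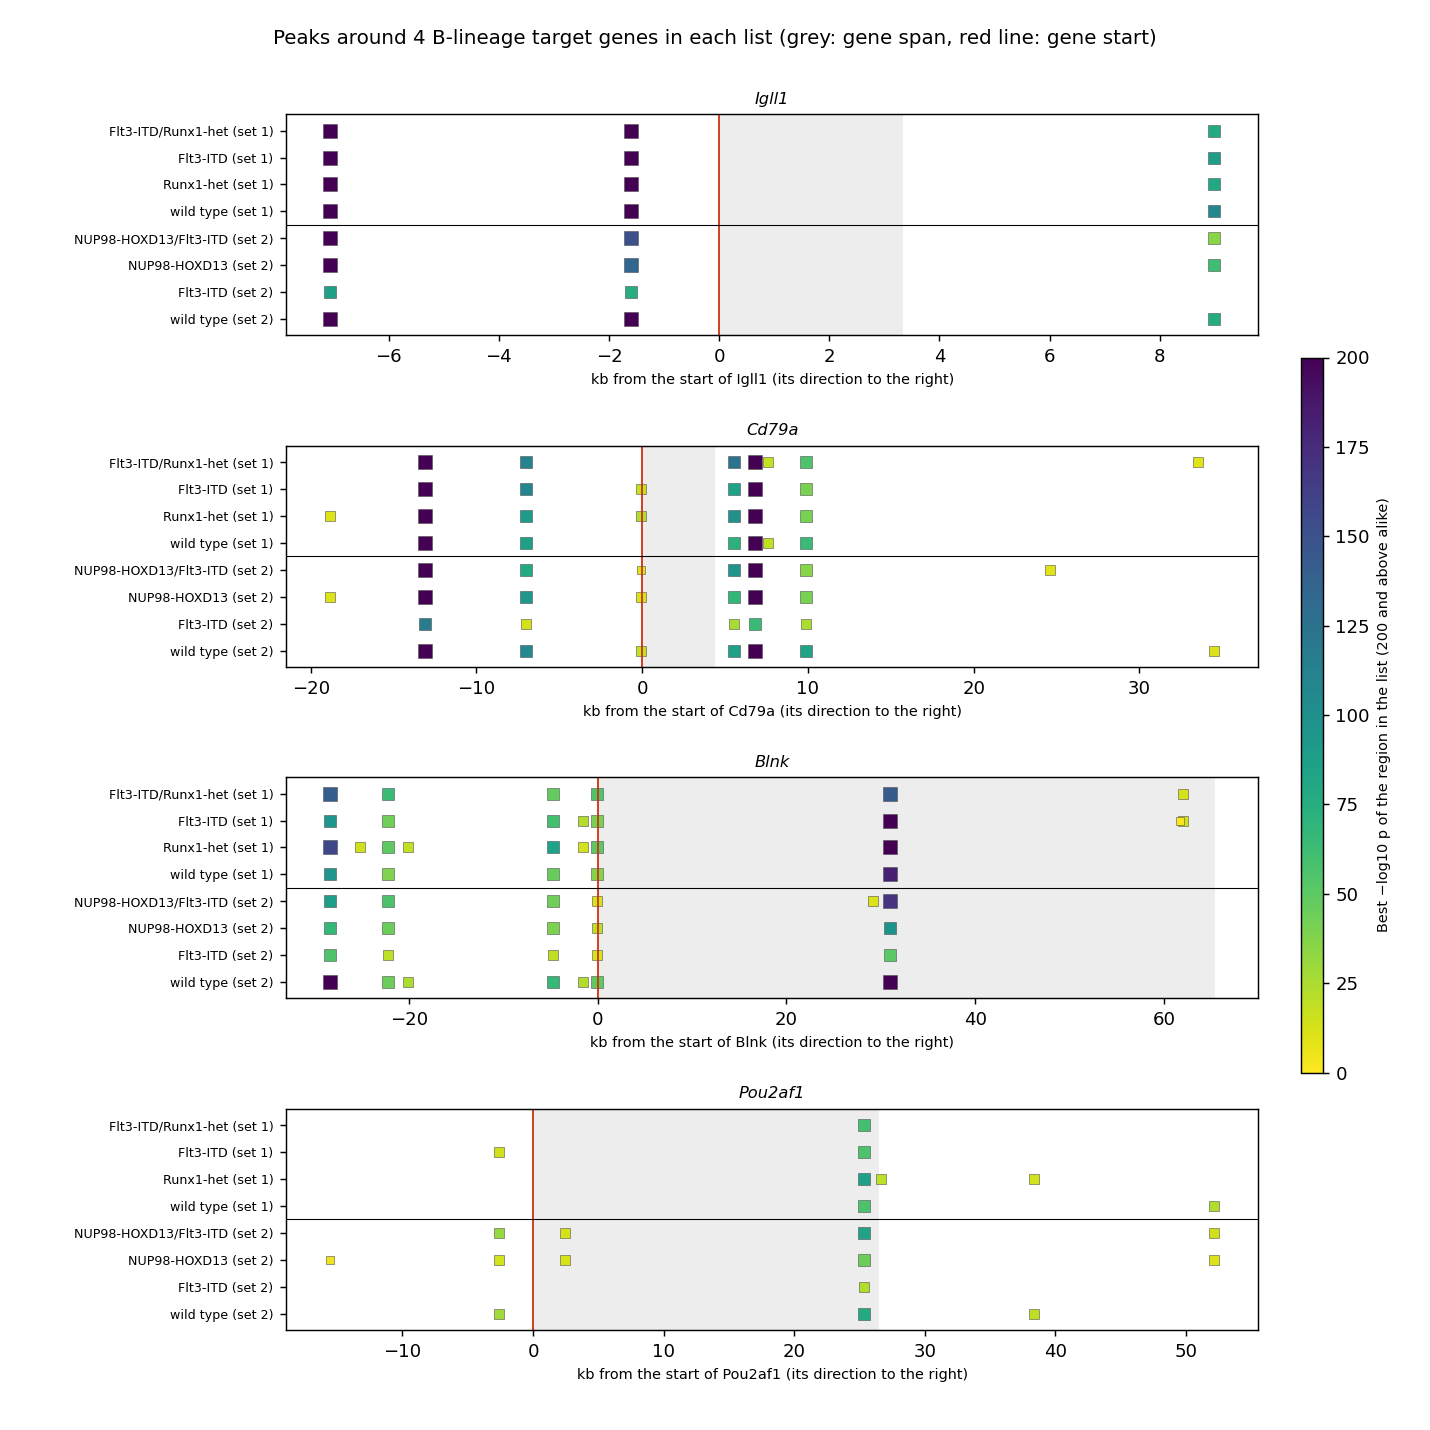
Peaks around Igll1, Cd79a, Blnk and Pou2af1 by distance from the gene start, with the gene running to the right, 1 row per list and set 1 above set 2. Colour and size give the best −log10 p of a region in its list, and grey marks the gene span. The starts of Igll1 and Pou2af1 carry no square in any row, that of Cd79a is marked in 5 rows and that of Blnk in all 8.

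Around the 9 genes, set-1 mutants gained more regions than they lost and set-2 mutants lost more than they gained, relative to the wild type of the set. Shares are of the regions that either of the 2 lists held. Flt3-ITD/Runx1-het gained 22 of 72 (30.6%, where 20.9% of all regions were gained) and lost 7 (9.72%, against 10.6% of all). Set-1 Flt3-ITD gained 22 of 72 (30.6%, against 18.7%) and lost 11 (15.3%, against 10.1%). Runx1-het gained 32 of 82 (39.0%, against 20.2%) and lost 5 (6.1%, against 8.51%). The gained share stood above that of all regions in each of these 3 mutants.

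In set 2, NUP98-HOXD13/Flt3-ITD gained 13 of 84 (15.5%, against 10.1% of all regions) and lost 18 (21.4%, against 23.4%). NUP98-HOXD13 gained 12 of 83 (14.5%, against 10.9%) and lost 22 (26.5%, against 21.3%). Flt3-ITD gained 5 of 76 (6.58%, against 4.35%) and lost 31 (40.8%, against 38.0%). Losses exceeded gains over all regions in these 3 mutants as well, and by more than around the 9 genes in NUP98-HOXD13/Flt3-ITD. The set-2 wild type was the longest of the 8 lists.

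The direction depended on which wild-type list was used. Set against the wild type of the other set, Flt3-ITD/Runx1-het gained 12 regions (14.5%, against 13.1% of all) and lost 18 (21.7%, against 19.9%), and set-1 Flt3-ITD gained 8 (10.1%, against 10.6%) and lost 18 (22.8%, against 19.2%). NUP98-HOXD13/Flt3-ITD gained 23 (31.5%, against 18.2%) and lost 7 (9.59%, against 14.7%), and NUP98-HOXD13 gained 22 (30.6%, against 19.8%) and lost 11 (15.3%, against 13.3%). The balance turned in these 4 mutants, both around the 9 genes and over all regions. Runx1-het still gained more than it lost around the 9 genes, 20 (22.0%, against 11.5%) and 14 (15.4%, against 17.1%), while over all regions its balance turned. Set-2 Flt3-ITD still lost more than it gained, 16 (26.2%, against 28.3%) and 11 (18.0%, against 9.62%). With 84080 peaks in every list, no balance over wild type of the set turned. Under that setting Runx1-het gained 18.2% of the regions (12.4% of all) and lost 7.27%, and set-2 Flt3-ITD lost 23.7% (23.9% of all) and gained 13.6%.

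The genes did not share equally in this. Counts here are of the regions of a gene that either list held, with the shares of all regions gained and lost in brackets. Over wild type of the set, Ebf1 gained 11 and lost 4 of 27 in Flt3-ITD/Runx1-het (20.9% and 10.6%). It gained 9 and lost 5 of 25 in set-1 Flt3-ITD (18.7% and 10.1%), and gained 11 and lost 3 of 27 in Runx1-het (20.2% and 8.51%). Against that, Ebf1 gained 3 and lost 12 of 31 in NUP98-HOXD13/Flt3-ITD (10.1% and 23.4%). It gained 5 and lost 12 of 33 in NUP98-HOXD13 (10.9% and 21.3%). In set-2 Flt3-ITD it gained 2 and lost 14 of 30 (4.35% and 38.0%). Pax5 gained 6 and lost 0 of 11 in Runx1-het, and gained 4 and lost 0 of 10 in NUP98-HOXD13/Flt3-ITD. The gain in NUP98-HOXD13/Flt3-ITD ran against the losses at Ebf1 in the same list. Cd79b gained 5 of 10, 6 of 11 and 5 of 10 regions in the set-1 mutants (Flt3-ITD/Runx1-het, Flt3-ITD and Runx1-het) and lost 1, 2 and 0. Most of these gained regions lay in the span of the neighbouring gene Scn4a. The comparisons within a set share 1 wild-type list, and the 2 sets had different ones.

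Gained and lost regions were weak ones. In the Runx1-het list, the 32 gained over wild type had a median −log10 p of 17.0, and the 45 kept had 62.2. In set-2 wild type, the 31 lost in Flt3-ITD had a median of 24.9 and the 40 kept had 89.4. The medians over all regions gained or lost in these comparisons were 17.8 and 27.5, near those of the 9 genes. Among the comparisons with wild type, the gained region with the highest value was at Pax5 85.6 kb in NUP98-HOXD13/Flt3-ITD (81.5), and the lost one at Ebf1 47.6 kb in NUP98-HOXD13 (111.2 in wild type).

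**Figure D4:**
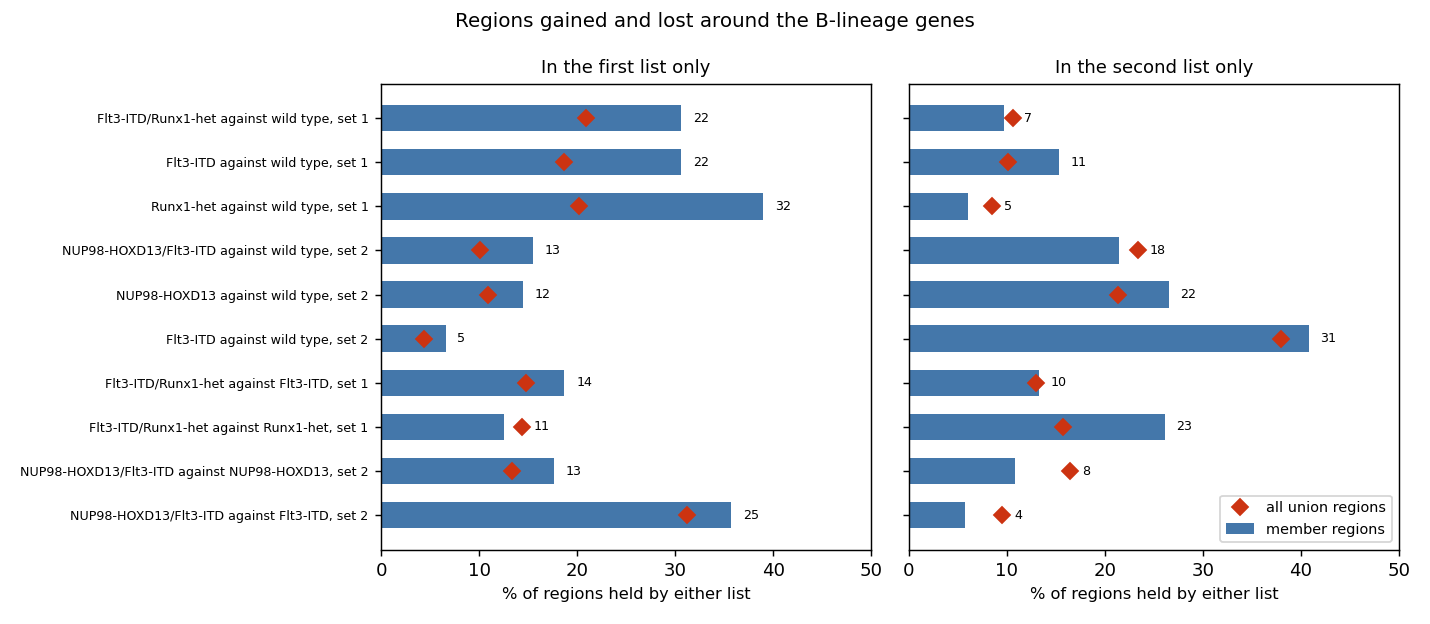
Regions around the 9 genes held by 1 of 2 compared lists, as a percentage of the regions held by either, with the count beside each bar. The left panel shows regions in the list named first only (gained), the right panel those in the second only (lost), and diamonds give the share over all union regions. Bars exceed the diamonds on the left for all 6 comparisons with wild type, and on the right the 3 bars of set 2 lie below the diamond for NUP98-HOXD13/Flt3-ITD and above it for the other two.

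Against the single mutants, Flt3-ITD/Runx1-het gained 14 of 75 regions over Flt3-ITD (18.7%, against 14.8% of all regions) and lost 10 (13.3%, against 13.0%). Over Runx1-het it gained 11 of 88 (12.5%, against 14.4%) and lost 23 (26.1%, against 15.7%), of which Ebf1 had 6 and Pax5 5. That lost share was 13.1% with equal numbers of peaks, where 11.5% of all regions were lost, and the balance then turned, with 10 gained and 8 lost.

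NUP98-HOXD13/Flt3-ITD gained 13 of 74 regions over NUP98-HOXD13 (17.6%, against 13.4%) and lost 8 (10.8%, against 16.5%), and Pax5 had 5 of the gains. Over set-2 Flt3-ITD it gained 25 of 70 (35.7%, against 31.2%) and lost 4 (5.71%, against 9.56%). All 9 genes had more gains than losses, though Vpreb1 and Igll1 shared the same 1 gained region. Of the 31 other genes counted below, some of which share regions, 26 had more gains than losses and 0 had more losses. The Flt3-ITD list of that comparison was the shortest, and with equal numbers of peaks the gained share was 19.6%, against 23.6% of all regions.

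Few regions followed a mutation within both lists that carried it. In this paragraph, alone means held by neither other list of the same set, and lists of the other set were not considered. Both Flt3-ITD lists of set 1 alone shared 4 regions (3.54%, against 2.79% of all union regions) and the 2 lists without it 3 (2.65%, against 1.78%). Those with Runx1-het alone shared 4 (3.54%, against 2.38%) and those without it 0 (1.15% of all). Set-2 wild type also held Ebf1 199.2 kb of the Flt3-ITD regions, and Ebf1 156.5, 215.2 and 233.9 kb of the Runx1-het regions. A Cd79b region (106340910 to 106341542) of the Flt3-ITD regions was in every list of set 2. In set 2, the NUP98-HOXD13 lists alone shared 4 (3.54%, against 2.8%), at Pax5 85.6 kb, Ebf1 281.7 kb and Pou2af1 2.4 and 52.2 kb. The last of these was also present in set-1 wild type (−log10 p 22.7). The 2 lists without NUP98-HOXD13 shared 1 (0.885%, against 2.07%), at Ebf1 278.4 kb. The Flt3-ITD lists of set 2 alone shared 1 (0.885%, against 0.452%), at Pax5 76.4 kb, and the 2 without it 1 (0.885%, against 4.5% of all).

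Regions absent from both wild types made up 35 of the 113 (31.0%, against 22.0% of all union regions). The set-2 wild type held 28 regions that the set-1 wild type lacked (24.8%, against 18.9% of all), and the reverse was true of 7 (6.19%, against 5.63%).

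Other genes listed for the B-lineage programme, 31 in number with 466 regions, were counted in the same way. The list also holds genes not limited to the B lineage, such as Erg, Irf8 and Runx1, the last being the gene altered in Runx1-het. They include the coreceptor gene Cd22, the recombinase genes Rag1 and Rag2, and the factor genes Foxo1, Ikzf1 and Bach2. Runx1-het gained 14.6% of their regions over wild type (20.2% of all union regions) and lost 6.32% (8.51% of all). Set-1 Flt3-ITD gained 12.4% (18.7% of all) and lost 11.3% (10.1%), and Flt3-ITD/Runx1-het gained 17.9% (20.9%) and lost 9.23% (10.6%). NUP98-HOXD13/Flt3-ITD gained 9.43% (10.1% of all) and lost 17.0% (23.4%). NUP98-HOXD13 gained 8.94% (10.9%) and lost 16.8% (21.3%), and set-2 Flt3-ITD gained 3.72% (4.35%) and lost 37.0% (38.0%). In Runx1-het, 19 of these 31 genes had more gains than losses and 6 more losses. Of the 9 genes described, 7 had more gains and 0 more losses. Some regions lay in the windows of more than 1 of the 31 genes and counted for each of them in these gene tallies. Gained shares of the 31 genes were below those of the 9 genes and below those of all union regions in all 6 mutants. These differences were not tested.

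The labelled cell type was checked on start windows. All 8 progenitor genes listed (Kit, Flt3, Cd34, Cd48, Meis1, Hlf, Mecom and Mycn) held a region at a start in every list. Of 4 pro-B and mature B genes with a window, Cr2 held one in 8 lists, Fcer2a in 1 (Flt3-ITD/Runx1-het), and Cd22 and Fcmr in 0. Of 5 T-cell genes only Lck held one (8 lists), of 3 erythroid genes none (0), and of 5 myeloid genes 2 to 3 per list, with Mpo and Itgam in all 8. Mature B-cell starts thus held regions in 1 or 2 of 4 genes in every list. A change in cell mixture and a change within cells cannot be told apart in these bulk lists.

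By share of a gene's regions held relative to the list's share of all regions, 7230 genes were compared with Ebf1 and with Pax5 over the 8 lists. The genes most like Ebf1 were Sez6l (Pearson r 0.944), Shisa8 (0.888) and Tns3 (0.87). Those most like Pax5 were Chdh (0.979), Cd81 (0.96) and Sys1 (0.954). The 8 points are the same lists for every gene, so these values are descriptions of likeness only.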

How the data were processed

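ATAC-seq peak lists of 16 samples in 8 groups were analysed, 1 list per group made from both samples, per the labels. The submitters' processing notes name Bowtie2, MACS2 and the builds mm10 and GRCm38. Thresholds, filters and read handling: not given in the sources used here. The deposited values of a peak are a fold enrichment (a ratio), a −log10 p-value and a whole-number score from 413 to 1000 of unstated meaning. Read depth is unknown.

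Overlapping peaks (1 bp or more) of the autosomes, X and Y were joined over the lists (Python 3.11.15, pandas 2.3.3). Gene spans and start windows came from RefSeq tables of GRCm38.p6. A region was ranked in a list by its best −log10 p. The joining and counting were tested on simulated data. Named regions were those at a gene's start, the highest of a gene in any list, up to 4 variable regions per gene, and those that followed a mutation within a set; others were chosen after their values were seen. The genes and lists were chosen with earlier results of these data known. Alternatives were other window margins, a minimum −log10 p, a minimum cover, equal numbers of peaks and the other wild-type list. One gene of the wider B-lineage list is not reported here and was left out of the counts.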

Additional observations from a re-analysis of the deposited data

Results flagged for a closer look

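Flt3-ITD was the only genotype other than wild type present in both sets, and its balance of gained and lost regions over wild type of the same set had opposite signs in them. Gained minus lost was 11 in set 1 and -26 in set 2 over all regions of the 9 genes. Ebf1 stood at 4 in set 1 and -12 in set 2, Cd79b at 4 and -2, Blnk at 3 and -2, and Blk at 1 and -4. The remaining genes did not have opposite signs: Pax5 stood at -1 in both sets, Cd79a and Pou2af1 at 0 and -2, and Vpreb1 and Igll1 at 0 and -1. The difference between the sets was not tested, since each group had 1 list. The set-2 Flt3-ITD list was the shortest (84080 peaks) and the set-2 wild-type list the longest (138514), while set 1 had 124527 peaks in Flt3-ITD and 113325 in wild type. With equal numbers of peaks the balance was 5 in set 1 and -6 in set 2. Against the wild type of the other set it was -10 for set-1 Flt3-ITD and -5 for set-2 Flt3-ITD, so the signs were then alike. Over all union regions, set-1 Flt3-ITD gained 16629 and lost 8974, and set-2 Flt3-ITD gained 4017 and lost 35073. The part of list length in the difference was not tested beyond this.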

How the results depend on the processing

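Against the wild type of the other set, 11 of 12 shares moved beyond the 95% exact binomial interval of the reported share, used as a range of counting error only, since regions of a gene are not independent and each group has 1 list: Flt3-ITD/Runx1-het gained 14.5% and lost 21.7%, set-1 Flt3-ITD gained 10.1%, Runx1-het gained 22.0% and lost 15.4%, NUP98-HOXD13/Flt3-ITD gained 31.5% and lost 9.59%, NUP98-HOXD13 gained 30.6% and lost 15.3%, and set-2 Flt3-ITD gained 18.0% and lost 26.2%. With 84080 peaks in every list, 6 of 20 shares moved: Runx1-het gained 18.2% over wild type, NUP98-HOXD13 gained 7.27%, set-2 Flt3-ITD lost 23.7%, Flt3-ITD/Runx1-het lost 13.1% against Runx1-het, and NUP98-HOXD13/Flt3-ITD lost 3.92% against NUP98-HOXD13 and gained 19.6% over Flt3-ITD. Fewer weak peaks enter under that setting, by its construction; the cause was otherwise not tested. The 20 shares stayed within those ranges with margins of 10 and 60 kb, a −log10 p of at least 10, peaks covering 50% of a region, and regions wholly inside the window, though with that cover Flt3-ITD/Runx1-het gained 11 and lost 12 against Flt3-ITD, which turned its balance. Among single regions and smaller counts, equal numbers of peaks moved 31 of 66, cover 9 of 66, the −log10 p minimum 4 of 66 and the wide margin 4 of 17. Leaving out the set-2 Flt3-ITD list was chosen after seeing the data. No paired analysis was possible because both samples of a group share 1 peak list, so the replicate numbers carry no values. Read depth is unknown, and a region missing from a list was not shown to be closed.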
